A study of Homo sapiens with 4 samples.

Results

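Distal 3′ UTR sites were the N6-methyladenosine (m6A) sites that lay far downstream of the stop codon, more than 1000 nt into the 3′ untranslated region (3′ UTR). They were taken from a list of m6A sites in poly(A)+ RNA of the established human cell line C643, which originates from a thyroid carcinoma of the anaplastic kind. The cells were untreated wild type, with 3 biological replicates sequenced as 4 libraries, and all replicates were pooled into 1 site list. The sites had been mapped with miCLIP2. In this assay ultraviolet light joins an m6A antibody to the RNA it has bound, and the cDNA breaks off at the joined nucleotide. A classifier, m6Aboost, had then given each retained adenosine a prediction score between 0 and 1. A site was counted as distal if it lay on the strand and in the 3′ UTR of the Ensembl canonical transcript of a protein-coding gene with 2 or more exons, over 1000 nt after the last base of the stop codon, measured in the spliced RNA. Of the 18789 sites of the list, 1365 met this rule. For 8 of them it held only in a readthrough gene, which joins neighbouring genes in 1 transcript, while the site also lay in a gene that is not readthrough and was not distal there, and these were left out. The remaining 1357 sites made up 7.22% of the list (95% Wilson interval 6.86 to 7.60) and 14.1% of the 9634 sites in canonical 3′ UTRs. They lay in 442 genes on 22 chromosomes. Of the sites, 720 had plus and 637 had minus orientation. No reads, expression values or values per replicate were analysed here, so the thyroid origin was not checked against marker genes, the depth behind each site is unknown, and all intervals cover the sampling of sites or genes and not the spread between cultures.

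m6A is placed on nuclear RNA by the METTL3-METTL14 methyltransferase complex at the motif DRACH, where D is any base but C, R is A or G, H is any base but G, and the A in the middle is methylated. The mark is known to gather around stop codons and in the beginning of 3′ UTRs, and to be read there by YTH-domain proteins, some of which shorten the life of the mRNA. The 3′ UTR is also where microRNAs, AU-rich element binding proteins and the cleavage and polyadenylation machinery act, and many genes end their transcripts at more than one poly(A) site, so a distal site exists only in the RNAs that reach that far.

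The sequences below give 21 nt around the methylated A in transcript direction on GRCh38, with the pentamer around the A in capitals. Each lies in the 3′ UTR part of the last exon of the named gene. The first 5 are the distal sites with the highest prediction scores, taking 1 per gene. They came from DKK3, a secreted Dickkopf family protein, MLLT1, a chromatin reader of the transcription elongation machinery, CD99L2, a membrane protein related to CD99, GNA11, a G protein alpha subunit, and PTTG1IP, a transmembrane protein that binds securin.
DKK3, chr11:11963235-11963255, minus strand: ggtgtcatGGACTgttgccac
MLLT1, chr19:6211997-6212017, minus strand: ggcgcattGAACTctggtcag
CD99L2, chrX:150767395-150767415, minus strand: acagacctGGACTgtgtggct
GNA11, chr19:3122554-3122574, plus strand: gaacgaggGGACTgtgtttgg
PTTG1IP, chr21:44849901-44849921, minus strand: tcaaaattGGACTttgtattg
The sites in DKK3, MLLT1 and CD99L2 each had a score of 1, and those in GNA11 and PTTG1IP a score of 0.991. A distal site of LSS also reached 0.991 and is not shown. Of the 5 sites shown, 4 were at GGACT and 1 was at GAACT. They lay 1219 nt after the stop codon in DKK3, 1035 nt in MLLT1, 1629 nt in CD99L2, 1385 nt in GNA11 and 1670 nt in PTTG1IP.

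The next 5 are the sites farthest from the stop codon, taking 1 per gene, and are shown because they mark how deep into 3′ UTRs the list reaches. They came from MAVS, the mitochondrial adaptor of antiviral RNA sensing, PGPEP1, a peptidase that removes pyroglutamate, PDXK, the kinase that activates vitamin B6, H6PD, the hexose-6-phosphate dehydrogenase of the endoplasmic reticulum, and IRGQ, an immunity-related GTPase family member.
MAVS, chr20:3874128-3874148, plus strand: aatttcacAGACAtgaggtca
PGPEP1, chr19:18369798-18369818, plus strand: ccgccctaGAACTtttgccag
PDXK, chr21:43762012-43762032, plus strand: gcaaaactGGACCaatgggag
H6PD, chr1:9270773-9270793, plus strand: gagcagagAGACTgttccctt
IRGQ, chr19:43586246-43586266, minus strand: agcagaaaAGACTaagactcc
None of these 5 was at GGACT. The MAVS site lay 7991 nt after the stop codon with a score of 0.780, and 1980 nt of the transcript followed it. The PGPEP1 site lay at 6225 nt with a score of 0.552, only 142 nt before the transcript end. The PDXK site at 5959 nt scored 0.880, the H6PD site at 5914 nt scored 0.981 and the IRGQ site at 5770 nt scored 0.831. In PGPEP1 and IRGQ the nearest upstream listed site was 5995 nt and 6389 nt away, whereas it was 161 nt away in MAVS, 5 nt in PDXK and 39 nt in H6PD.

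The last set shows a dense group, 5 distal sites of WNT7B within 100 nt. WNT7B encodes a secreted WNT ligand. The windows of neighbouring sites overlap where the sites lie closer than 21 nt.
WNT7B at 1303 nt, chr22:45921543-45921563, minus strand: acagatggGAACTctgaggcc
WNT7B at 1329 nt, chr22:45921517-45921537, minus strand: tggcacaaGGACCtaccagag
WNT7B at 1340 nt, chr22:45921506-45921526, minus strand: cctaccagAGACCctgcagct
WNT7B at 1354 nt, chr22:45921492-45921512, minus strand: tgcagctgTGACTggaggctt
WNT7B at 1397 nt, chr22:45921449-45921469, minus strand: ggggctctGGACCtgggagaa
Their scores were 0.882, 0.734, 0.600, 0.614 and 0.780 in this order, and all 5 were at DRACH. The highest score belonged to the site nearest the stop codon. A dense group of 5 also occurred in TMEM127, a membrane protein known as a tumour suppressor, at 1219 to 1297 nt. GNA11 had 4 sites at 1343 to 1422 nt, and NUDCD3, a co-chaperone of the dynein complex, had 4 at 1073 to 1149 nt. Other genes, among them H6PD and SLC7A5, also had 4 within 100 nt and ranked lower only by score.

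The distal sites were spread thinly over most of their genes and densely over a few. A host gene had a median of 2 distal sites (quartiles 1 and 4), and 153 of the 442 genes had 1. The 87 genes with 5 or more held 673 sites (49.6%), and the 10 genes with the most held 158 (11.6%). Most distal sites were not the only sites of their 3′ UTR. A listed site in the first 1000 nt of the same 3′ UTR was found in 374 host genes (84.6%), and in 266 (60.2%) it lay in the first 200 nt. In 36 host genes (8.14%) all listed sites of the transcript were distal, and 262 (59.3%) also had sites upstream of the 3′ UTR.

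H6PD held the most distal sites, 27 in a 3′ UTR of 6468 nt. They fell into a group of 7 between 1454 and 2690 nt and a group of 20 between 4161 and 5914 nt, separated by 1471 nt without a listed site. Their scores had a median of 0.794 and ran from 0.503 to 0.981, with the highest at the last site. NDST1, a heparan sulfate N-deacetylase and N-sulfotransferase, had 18 sites between 1456 and 4448 nt in addition to 13 in the first 1000 nt. PIP5K1C, a kinase that makes phosphatidylinositol 4,5-bisphosphate, had 16 and 12. TMEM127 had 15 and 7, all 15 within 969 nt at the start of the distal part and none in the last 3323 nt of a 3′ UTR of 5294 nt. SLC7A5, the large neutral amino acid transporter, had 14 between 1495 and 2483 nt. TBC1D16, a GTPase-activating protein for Rab proteins, had 13 in a 3′ UTR of 8516 nt, and NDOR1, a diflavin reductase of cytosolic iron-sulfur cluster assembly, also had 13. LARP1, which binds mRNAs of ribosomal proteins, had 12. PVR, the poliovirus receptor and adhesion molecule, had 11, of which 10 lay by 1689 nt and the other at 4171 nt. Of the PVR sites, 1 also lay in an exon of the gene ENSG00000279095. LIF, a cytokine, and LRRC14 had 11 sites too and ranked lower only by score.

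**Figure D1:**
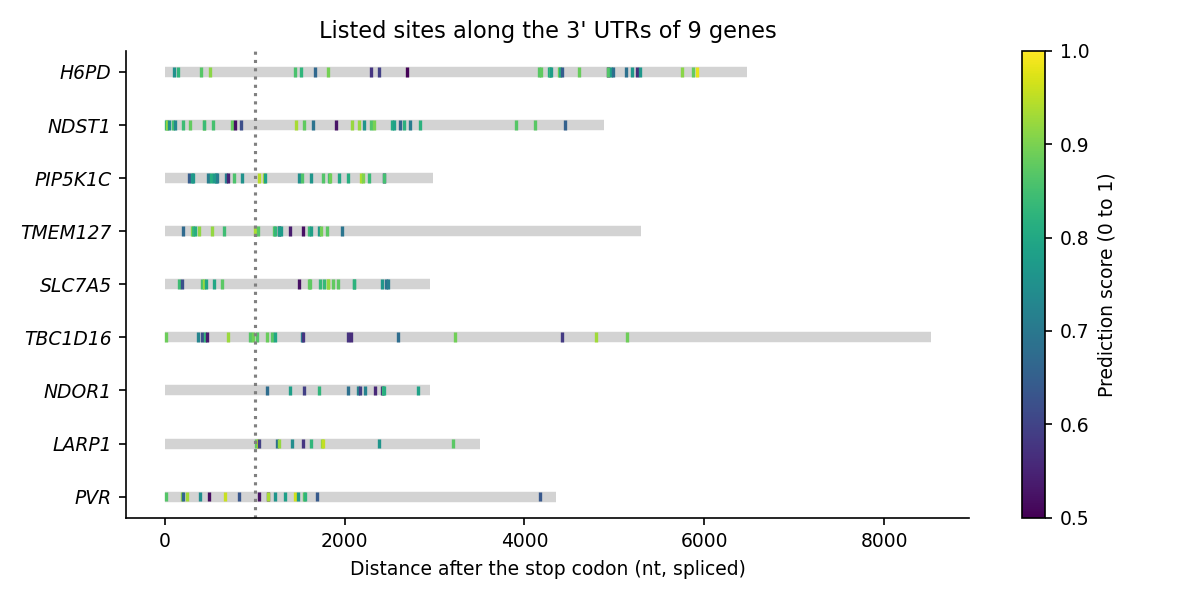
Listed m6A sites along the 3′ UTRs of 9 of the 10 genes with the most distal sites. The x axis is the distance after the stop codon in spliced nt, grey bars are the 3′ UTRs of the canonical transcripts, each tick is 1 listed site coloured by its prediction score, and the dotted line marks 1000 nt. NDOR1 and LARP1 have no tick before the line, and H6PD has a gap of 1471 nt between its distal groups.

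In NDOR1 and LARP1 the first 1000 nt of the 3′ UTR held no listed site although they held DRACH motifs. In NDOR1, 0 of 12 motifs were listed there against 13 of 34 in the distal part, and in LARP1 the counts were 0 of 13 and 11 of 44. Among all hosts, 68 had no listed site in the first 1000 nt, with 182 distal sites between them. Their first 1000 nt held 1093 DRACH motifs, none of them listed, while 169 of the 2367 motifs in their distal parts were listed. That these hosts had no site in the first part is how they were picked, after their values were seen, and it was given no test. Further hosts of this kind with 5 or more distal sites were PPIL2, a cyclophilin-type protein with 9, ATRIP, the partner of the ATR checkpoint kinase, with 7, CCDC97 with 7, BLCAP with 6, and ABR with 5. Among these hosts, overlapping annotation touched NDOR1 and ATRIP. All 13 NDOR1 sites also lay in exons of the gene ENSG00000284976, and all 7 ATRIP sites also lay in TREX1, a DNA exonuclease gene. In both, the list does not tell which of the transcripts carries the sites. All 13 NDOR1 sites lay past the 3′ end of a shorter annotated transcript with the same stop codon, while none of the 12 LARP1 sites did.

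Distal sites were found in 442 of the 1702 genes that had a 3′ UTR over 1000 nt and at least 1 listed site (26%), and these 1702 were 17.5% of the 9699 coding genes with such a 3′ UTR. The 3′ UTRs of the hosts had a median of 2150 nt (quartiles 1702 and 3123, range 1098 to 10328). Those of the other 1260 genes had a median of 1898 nt (quartiles 1312 and 3069, range 1001 to 17321). The share of genes with a distal site was 11.9% (59 of 494) for 3′ UTRs of 1001 to 1500 nt, 34.9% (125 of 358) for 1501 to 2000 nt, 33.6% (137 of 408) for 2001 to 3000 nt, 29.0% (90 of 310) for 3001 to 5000 nt and 23.5% (31 of 132) above that. Differences between the length classes were not tested. A 3′ UTR only just over 1000 nt has little distal sequence, so the rule itself affects these shares and the lengths of the hosts. The number of distal sites per kb of distal 3′ UTR was 0.789 for 3′ UTRs of 1001 to 1500 nt and 1.21 for 1501 to 2000 nt. It was 0.773 for 2001 to 3000 nt, 0.409 for 3001 to 5000 nt and 0.179 for those over 5000 nt.

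**Figure D2:**
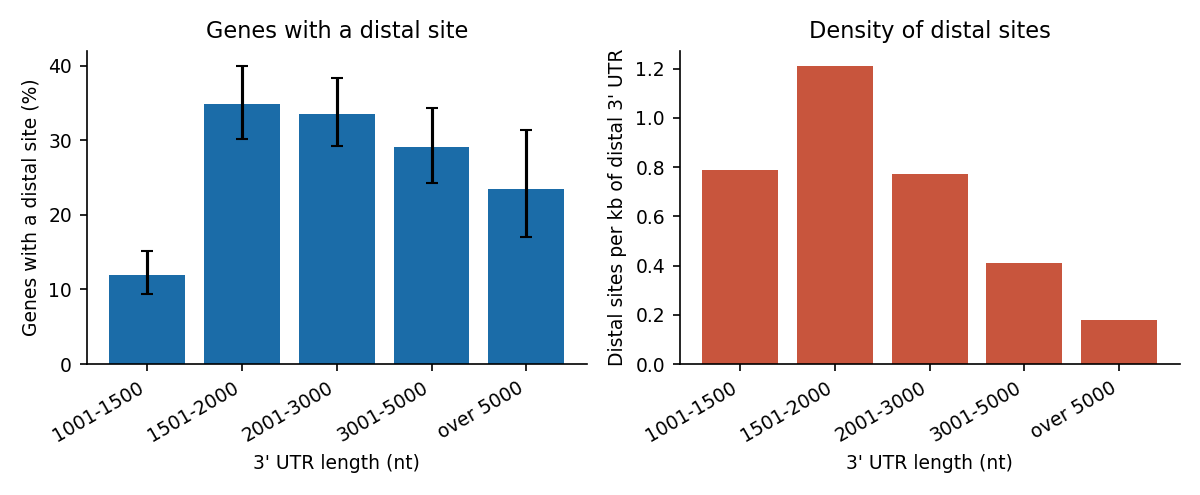
Distal sites by length of the 3′ UTR, in genes with at least 1 listed site. The left panel shows the percentage of genes with a distal site with 95% Wilson intervals, and the right panel the number of distal sites per kb of 3′ UTR beyond 1000 nt. The share is lowest for 3′ UTRs of 1001 to 1500 nt (11.9%), which by their length have the least sequence beyond 1000 nt. The density is highest at 1501 to 2000 nt (1.21 per kb).

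The distal sites lay mostly near the boundary of 1000 nt. Their distance from the stop codon had a median of 1499 nt (quartiles 1214 and 2063). Of the 1357 sites, 684 (50.4%) lay at 1001 to 1500 nt, 303 (22.3%) at 1501 to 2000 nt, 248 (18.3%) at 2001 to 3000 nt, 95 (7.0%) at 3001 to 5000 nt and 27 (1.99%) farther out. The boundary itself cut through a continuous distribution, with 81 sites at 951 to 1000 nt and 79 at 1001 to 1050 nt. The distance to the end of the canonical transcript had a median of 743 nt (quartiles 379 and 1478, range 41 to 8664). At the median, 68.5% of the 3′ UTR lay before the site. In the last 500 nt there were 466 sites (34.3%), in the last 200 nt 150 (11.1%) and in the last 100 nt 24 (1.77%).

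**Figure D3:**
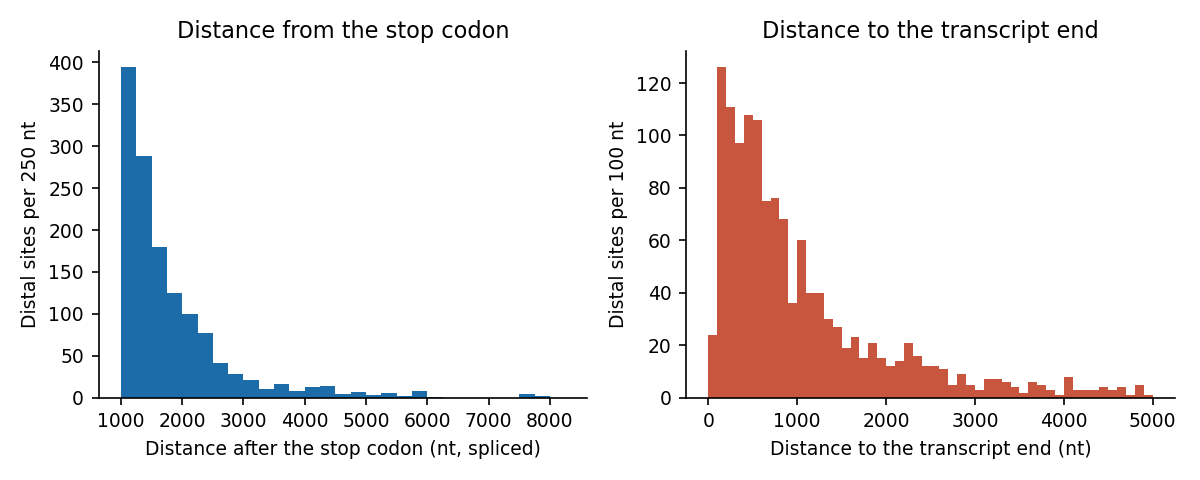
Distances of the 1357 distal sites from the stop codon (left, spliced nt, bins of 250 nt) and to the end of the canonical transcript (right, nt, bins of 100 nt, sites up to 5000 nt shown). The median site lies 1499 nt after the stop codon, and the last 100 nt hold 24 sites.

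Nearly all distal sites were in the last exon (1355 of 1357), and for 1310 (96.5%) the stop codon was in it too. One exception was a site in MARVELD1, a membrane protein with a MARVEL domain, 1405 nt after the stop codon in exon 1 of 2. The other was in exon 18 of 29 of ENSG00000286112, the only host that is itself annotated as readthrough. The annotation gave 659 sites (48.6%) at least 1 shorter transcript with the same stop codon that ends before the site. Overlap with other annotation was rare, with 57 sites (4.20%) in an exon of another gene and 24 (1.77%) in coding sequence or 5′ UTR of another transcript.

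To set the positions against what the sequence offered, the DRACH motifs of the 1702 genes were used. These 3′ UTRs held 74786 motifs, of which 5393 were listed (7.21%). In the first 1000 nt 14.4% of the motifs were listed (4188 of 29161), and beyond it 2.64% (1205 of 45625). The share fell from 24.1% in the first 250 nt to 6.62% at 751 to 1000 nt, 5.45% at 1001 to 1250 nt, 2.64% at 1751 to 2000 nt and 0.727% at 3751 to 4000 nt. Within genes, the odds of being listed were lower for distal motifs, with a Mantel-Haenszel odds ratio of 0.203 (95% interval 0.181 to 0.228, n = 1305 genes, score test stratified by gene, two-sided, p = 6.54e-113, Benjamini-Hochberg adjusted over 7 tests p = 4.58e-112). The direction held in 1143 of these genes. The size moved with the genes taken. In genes with a listed site beyond 2000 nt, some RNA reached past the compared part, but how much of it is unknown. For them the odds ratio for motifs at 1001 to 2000 nt against the first 1000 nt was 0.456 (0.352 to 0.591, n = 116 genes, same score test, p = 2.59e-08). This alternative was chosen after seeing the data. Its genes were picked by a distal listed site, and the part of that choice in the value was not tested. Read coverage along the 3′ UTRs was not analysed here, and its part in the difference was not tested.

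**Figure D4:**
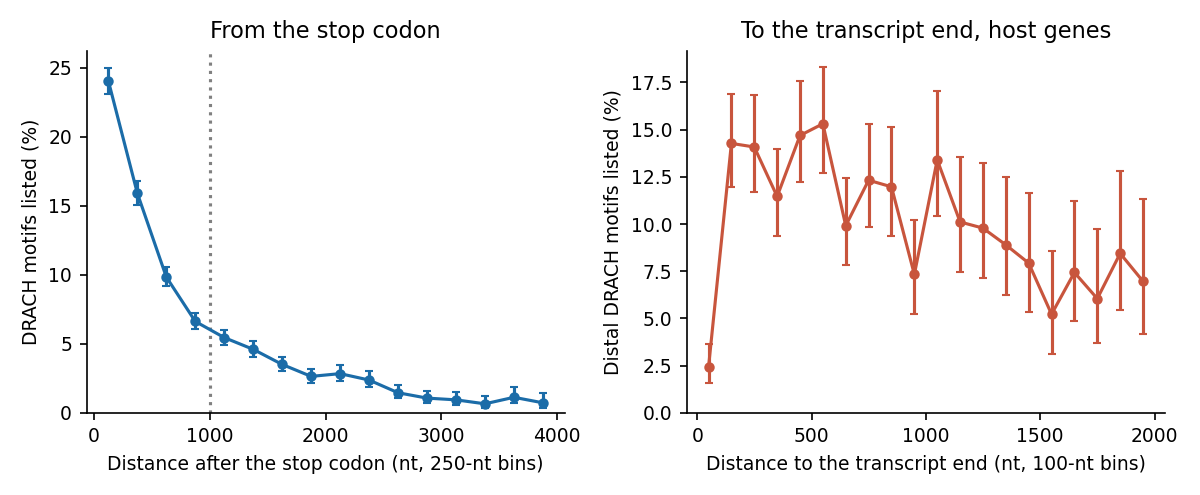
Share of DRACH motifs that were listed as m6A sites, with 95% Wilson intervals. The left panel gives all motifs in 3′ UTRs over 1000 nt of the 1702 genes with a listed site by distance after the stop codon (bins of 250 nt, dotted line at 1000 nt), and the right panel the distal motifs of the host genes by distance to the transcript end (bins of 100 nt). The share falls from 24.1% to 0.727% over 4000 nt, and is 2.42% in the last 100 nt against 14.3% in the 100 nt before.

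Listing was also low at the opposite end of the transcript, in its last 100 nt. In the host genes, 2.42% of the distal motifs in the last 100 nt were listed (21 of 868; Wilson interval 1.59 to 3.67), against 14.3% of those 100 to 199 nt before the end (110 of 771; 11.98 to 16.91). Farther in, the share lay between 7.33% and 15.3% in each 100 nt up to 1100 nt. Within genes, motifs in the last 200 nt were listed less often than the other distal motifs, with an odds ratio of 0.412 (0.322 to 0.527, n = 402 genes, score test stratified by gene, p = 2.83e-15, adjusted p = 6.60e-15). With the last 100 nt in place of 200 the odds ratio was 0.0964 (0.0594 to 0.156), and with the last 500 nt it was 0.611 (0.498 to 0.749). The difference was thus largest for the shortest of these 3 windows. Among the bins of the last 500 nt, only the last 100 nt stood out, with shares of 11.5% to 14.7% in each 100 nt from 100 to 499 nt before the end. At 1500 to 1999 nt before the end the shares were 5.22% to 8.44%. The bins pool motifs over genes, and the genes differ between bins, with 371 in the last 100 nt and 102 at 1900 to 1999 nt. How much of the shares this accounts for was not tested. Within a gene, motifs nearer the end also lie farther from the stop codon, where listing was lower. The tests did not adjust for that distance, so none of the odds ratios for these 3 windows can separate the 2. Read coverage at the ends was not analysed here, and its part was not tested.

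Distal sites lay mostly at the known m6A motif. DRACH was found at 1205 sites (88.8%, 87.0 to 90.4), and 1322 (97.4%) had a C directly after the A. GGACT was the most frequent with 299 sites, followed by GGACA with 164, AGACT with 144, GAACT with 140 and TGACT with 129. In the first 1000 nt of the same 3′ UTR class, 88.2% of the 4748 sites were DRACH. The within-gene odds ratio for DRACH was 1.08 (0.854 to 1.38, n = 209 genes, p = 0.506), and a difference within this interval was not detectable. Sequence was an input of the classifier in both parts alike.

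Among the DRACH sites GGACT was more frequent in the distal part, 24.8% against 20.9%. The within-gene odds ratio was 1.43 (1.17 to 1.75, n = 279 genes, score test stratified by gene, p = 0.000779, adjusted p = 0.00136), with the direction seen in 142 genes and the opposite in 126. The motif supply went the other way, since GGACT made up 5.41% of the distal DRACH motifs and 6.98% of those in the first 1000 nt. Of the GGACT motifs 12.1% were listed in the distal part and 43.0% in the first 1000 nt. For GGACA the shares were 5.74% and 27.9%, for AGACT 5.45% and 29.9%, for GAACT 6.09% and 33.6% and for TGACT 4.84% and 20.6%. With the boundary at 2000 nt the odds ratio for GGACT was 1.44 (0.955 to 2.17, n = 90 genes) and did not pass the threshold (p = 0.0934).

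The other 152 distal sites (11.2%) were not at DRACH. The most frequent of their pentamers were GGACG with 37 sites, GTACT with 21, AGACG with 15, and GCACT and GGATT with 10 each. Most of them differ from DRACH in 1 base, as in GGACG, which ends in G, and 117 of the 152 kept the C after the A. The highest-scoring examples of GGACG and AGACG were in SIPA1L3, a GTPase-activating protein, and PLXNA1, a semaphorin receptor, and are shown for comparison with the DRACH sites above.
SIPA1L3, chr19:38207308-38207328, plus strand: accccactGGACGctggttct
PLXNA1, chr3:127035308-127035328, plus strand: aattttaaAGACGatttgaac
The SIPA1L3 site had a score of 0.979 and lay 1078 nt after the stop codon. The PLXNA1 site had a score of 0.862 and lay at 1301 nt. Distal sites outside DRACH had a median score of 0.623 against 0.815 for those at DRACH. Among the frequent pentamers, the median score was 0.875 for GGACT and 0.870 for GAACT, and it was 0.798 for GGACG, close to the 0.803 of GGACA.

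Prediction scores of distal sites had a median of 0.794 (quartiles 0.665 and 0.875, range 0.502 to 1), against 0.800 (0.701 and 0.874) in the first 1000 nt of the same class of 3′ UTRs. A score of at least 0.7 was reached by 68.1% of the distal sites and 75.04% of the others, so a larger share of the distal sites was at the low end. Within genes the distal site had the higher score in 47.3% of pairs (44.7 to 49.9, n = 374 genes, rank test stratified by gene, p = 0.0403), which did not pass after adjustment (p = 0.0565). Without the 10 genes with the most distal sites it did (47.0%, n = 367 genes, adjusted p = 0.0353). Among sites with a score of at least 0.7 the direction was the opposite and also passed. There the share was 54.3% (51.0 to 57.5, n = 297 genes, same rank test, adjusted p = 0.0159), but this limit restricts the compared scores themselves.

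Distal sites often came in groups. Of the 1357, 600 (44.2%) had another listed site within 50 nt, and 153 (11.3%) had none within 500 nt. Neighbouring distal sites of a gene formed 915 pairs with a median gap of 82 nt. Of these pairs, 17.0% were at most 20 nt apart, 36.5% at most 50 nt and 56.9% at most 100 nt. In the first 1000 nt the median gap was 70 nt and 39.6% of 3438 pairs were at most 50 nt apart. Within genes the odds ratio for a gap of at most 50 nt was 0.975 (0.788 to 1.21, n = 207 genes, score test stratified by gene, p = 0.816), so the spacing in the distal part could not be told from that nearer the stop codon at this precision. There were 14 runs of 4 or more sites with neighbours at most 50 nt apart, in 14 genes with 60 sites, and the longest had 6. In 31 pairs the sites were at most 5 nt apart. Whether such neighbours were called from the same reads was not tested.

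The sequence around the listed distal motifs was richer in G and C. GC content was taken over 50 nt on each side of the A, leaving out the 21 nt that the classifier read. Its median was 57.5% (quartiles 52.5 and 63.8) at the 1205 listed motifs and 51.3% (43.8 and 58.8) at the 11429 motifs of the same genes that were not listed. Flanks with less than 40% GC were found at 3.07% of the listed motifs (37; Wilson interval 2.24 to 4.20) and 15.5% of the others (14.83 to 16.15). Within genes the listed motif had the higher GC content in 65.0% of pairs, as a weighted mean over genes (63.2 to 66.9, n = 426 genes, rank test stratified by gene, p = 7.75e-32, adjusted p = 2.71e-31). For motifs that lay upstream of the last listed site of their gene the share was 59.1% (56.6 to 61.6, n = 269 genes), an alternative chosen after seeing the data. GC content also differed between the parts, with a median of 48.8% around distal motifs and 52.5% around those in the first 1000 nt of the 1702 genes. With gene and GC class together as strata, the odds ratio of distal against nearer motifs was 0.235 (0.209 to 0.265, n = 1159 genes). This alternative was also chosen after seeing the data. Its GC classes were broad, with limits at 40%, 50% and 60%, and differences in GC content within a class were not tested.

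**Figure D5:**
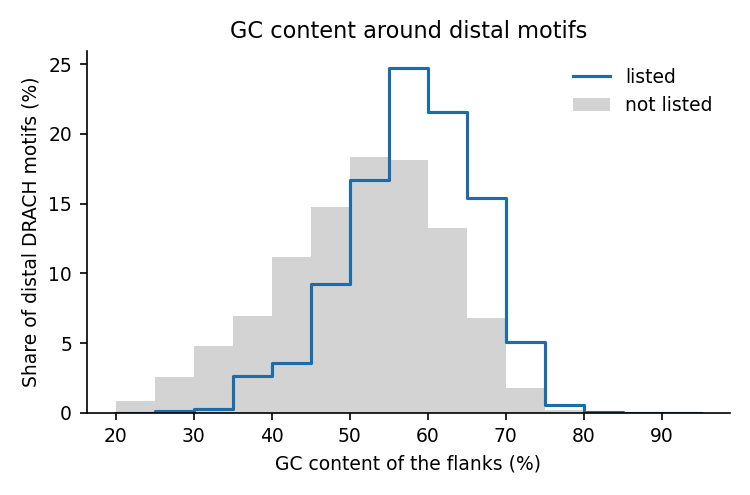
GC content of the flanks of distal DRACH motifs in host genes (x axis, percent, bins of 5 percentage points) for listed motifs (line) and motifs not listed (grey bars), each as a percentage of its own group. The listed motifs are shifted to higher GC content, with a median of 57.5% against 51.3%.

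Words that mark regulatory elements of 3′ UTRs were searched on the transcript strand in the 50 nt on each side of the A. Unlike for GC content, the stretch around the A that the classifier read was not left out. The words could share bases with each other. ATTTA, the core of AU-rich elements, was found at 3.82% of the listed distal motifs (46) and 8.70% of the others (994). AATAAA, the poly(A) signal, was found at 1.24% and 7.61%, and at 1.01% and 3.63% when the last 100 nt of the transcript were left out. TGTANATA, the word bound by Pumilio proteins, was found at 0.498% (6 motifs) and 0.866%. The Wilson intervals of the last pair overlapped (0.228 to 1.08 and 0.712 to 1.05). Such intervals treat motifs of the same gene as independent, and no difference in any of these words was tested. All of these words are rich in A and T, and the part of GC content in their shares was not tested. The part of the sequence that the classifier read was not tested either.

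Host genes were also set against 9 lists of genes whose products act on 3′ UTRs or belong to pathways of this kind of cell. The lists were chosen with earlier results of these data known, and no list was tested. The share of genes with a distal site is read against the 26% of all genes with a listed site and a 3′ UTR over 1000 nt. Receptor tyrosine kinases and their adaptors, which start growth factor signalling, had distal sites in 6 of 7 such genes. PDGFRB, a platelet-derived growth factor receptor, had 5 sites, the ephrin receptor EPHB2 had 3, the fibroblast growth factor receptor FGFR1 and the adaptor SHC1 had 2 each, and AXL and the adaptor GRB2 had 1 each. Enzymes of sugar chain synthesis and the secretory pathway had distal sites in 6 of 13. Of their 50 sites 27 were in H6PD and 18 in NDST1, while EXTL3, which starts heparan sulfate chains, had 2 and GALNT10, GALNT2 and ST3GAL2 had 1 each.

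Extracellular matrix and adhesion genes had distal sites in 6 of 18, with 10 in PLXNA1, 4 each in the collagen gene COL5A1 and the proteoglycan gene SDC1, 3 in GPC1, 2 in the integrin gene ITGA3 and 1 in PLXND1. Immediate early and stress transcription factors had them in 4 of 10. These were the small MAF proteins MAFK with 6 sites, MAFG with 2 and MAFF with 1, and the AP-1 member FOSL2 with 2. In WNT, NOTCH, TGF-beta and Hippo signalling there were 2 of 8, with 5 sites each in SMAD3, which carries the TGF-beta signal, and SKI, which represses it. Ubiquitin ligases and their adaptors had 1 of 6, WWP2 with 2 sites.

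The machinery that acts on 3′ UTRs was covered by the other 3 lists, in which most genes had no listed site, as was the case for all genes with a 3′ UTR over 1000 nt (17.5% had one). For miRNA silencing and deadenylation the count was 0 of 3 genes with a site, out of 22 with a 3′ UTR over 1000 nt. For RNA-binding proteins that act on 3′ UTRs it was 1 of 4, out of 25, with 1 site in ZFP36L1, which binds AU-rich elements and promotes mRNA decay. For cleavage and polyadenylation it was 1 of 1, out of 9, with 5 sites in CPSF7, a subunit of the cleavage factor that helps choose poly(A) sites. With counts this small, a difference from the background was not detectable.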

How the data were processed

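Poly(A)+ RNA of 3 biological replicates (4 libraries) of C643 cells without treatment was profiled by miCLIP2. Per the methods and the submitters' processing notes, the authors aligned reads to GRCh38 with GENCODE 31 annotation (STAR 2.7.3a, SAMtools 1.9), removed duplicates by molecular identifiers (UMI-tools 1.0.0), separated reads that carried C-to-T transitions, ran PureCLIP replicate by replicate, required a peak in at least 2 replicates and classified those at adenosines with m6Aboost. The deposited list gives the position and, as a fraction between 0 and 1, the prediction score of each site called modified. It pools the replicates and holds no read counts, rejected peaks or depths. m6Aboost used the surrounding 21 nt, the transcript region, the number of C-to-T transitions and the signal strength relative to the gene, and a peak needs reads, so only motifs in RNA expressed well enough can be listed.

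Positions are 1-based. Sites were placed on the Ensembl canonical transcripts of GENCODE 44, a later release on the same assembly. The members and gene lists were chosen with earlier results of these data known. A motif was counted as listed if its A was in the list. Shares have 95% Wilson intervals, which treat sites or motifs of the same gene as independent. Distal and nearer motifs or sites were compared within genes by score tests stratified by gene, with the variance taken between genes (Mantel-Haenszel odds ratio), and scores and GC content by rank tests of the same form, two-sided, threshold 0.05 after Benjamini-Hochberg adjustment over 7 tests. In the rank tests the share of pairs is a mean of the shares per gene, weighted by the numbers compared, with ties split evenly. The tests were tested on simulated data. Named are the 10 genes with the most distal sites, the 5 farthest and 5 highest-scoring sites (1 per gene), the 5 genes with the most sites in 100 nt, the 5 most frequent pentamers at DRACH and outside it, and up to 5 list members with most sites, except where the text says otherwise. Results of some genes are not reported here. The sixth members of lists, the genes tied with the tenth, the genes with sites outside the last exon and the sites shown for GGACG and AGACG were named after their values were seen. Alternatives changed the score threshold, transcript, overlaps, boundary, windows and motif, or left out the 10 genes. Scripts ran under Python 3.11.15 with pandas 2.3.3, scipy 1.17.1, numpy 2.4.6 and matplotlib 3.10.9.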

Additional observations from a re-analysis of the deposited data

How the results depend on the processing

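In all, 63 alternatives were run on 10 results, and 49 were rated as the same. For tests this meant the same direction and side of the threshold, and for counts a value within 1.5 times. For the share of the list it meant a value inside its 95% Wilson interval (6.86 to 7.60%). The lower listing of distal motifs (odds ratios 0.151 to 0.456 over 9 alternatives), the lower listing at the transcript end (0.0964 to 0.611 over 7) and the higher GC content of the flanks (59.1% to 65.1% over 7) passed in each of them, and DRACH did not pass in any (1.05 to 1.43 over 6). With the boundary at 2000 nt there were 370 sites in 131 genes, 1.97% of the list, the GGACT odds ratio was 1.44 and no longer passed, and the score and spacing values turned to 50.5% and 1.06, neither past the threshold. At a score of at least 0.7 the distal share of the list was 7.82%, the score comparison, for which this restricts the compared values themselves, turned to 54.3% and the spacing odds ratio to 1.02. With the longest supported transcript the share was 7.63%. Without the 10 genes with the most distal sites the score comparison passed (47.0%) and the spacing odds ratio was 1.04. It was 1.06 without the first 200 nt of the near part and 1.17 for gaps of at most 20 nt. The cause of these changes was not tested.

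No paired analysis was possible because the list pools the replicates of 1 group, and for the same reason no replicate was left out. The depth per site is unknown, so a motif that is not listed is not shown to lack the mark. Genes enter only with a listed site, and motifs at transcript ends that these cells do not use count as not listed. p-values measure the spread between genes of 1 list and not between cultures.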
